A study of Mus musculus with 6 samples.

Results

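The transcripts of mouse cumulus-oocyte complexes collected 16 h after human chorionic gonadotropin (hCG) were compared with those of complexes that had received no hCG. The comparison takes in every probe set of the array that is no control and carries 1 gene symbol, which is 34945 of 45101. These probe sets stood for 18193 genes, and 13559 of the genes had a probe set bright enough to be tested. Of the series' 6 arrays, 4 make up the comparison, 2 pools of complexes without hCG and 2 pools taken 16 h after it. The remaining 2 arrays, from complexes taken 8 h after hCG, entered the fit through its estimate of the spread. They also counted in the mean by which dim probe sets were left out and a gene's probe set was chosen. Their values show where a gene stood in between.

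All groups came from immature wild type females primed for 48 h with equine chorionic gonadotropin (eCG), a hormone that makes follicles grow. The animals' strain, their age and the hormone doses are not given in the sources used here. Complexes without hCG were punctured out of ovaries with a needle, while those of both hCG groups were described as coming from the oviduct. The hormone and the place of collection therefore cannot be told apart. The complexes of each sample were pooled, and the labels do not say whether the replicates of a group came from separate animals, so the p-values speak of the spread among these pools alone, and that spread may be technical. The labels also call the complexes without hCG expanded, although expansion of the cumulus normally follows the ovulatory hormone.

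As background, a cumulus-oocyte complex is an oocyte inside a coat of granulosa cells, the cumulus, coupled to it and to each other by gap junctions. The ovulatory surge, which hCG imitates, acts on the follicle through EGF-like ligands and prostaglandins, and the cumulus answers by building a matrix of hyaluronan, leaving the cell cycle and turning from estrogen to progesterone synthesis. The oocyte meanwhile resumes meiosis and, no longer transcribing, lives on stored messages that it degrades in an ordered way.

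The complexes' own cell types were present at both collections. Gja1, the main gap junction gene of cumulus cells, read 13.66 and 13.85 without hCG and 13.59 and 13.74 at 16 h, on the log2 intensity scale used throughout. Zp2, a zona pellucida gene made only by oocytes, read 12.39 and 12.35 without hCG but 7.46 and 7.53 at 16 h. Gdf9, an oocyte growth factor gene, was still at 12.56 and 12.41 at 16 h. In pooled tissue of this kind, fewer cells of a type and less RNA per cell cannot be told apart. Leukocyte genes were higher at 16 h and are described beside the immune genes. Array medians lay between 6.14 and 6.27. Pearson's r across probe sets, which are no replicates, was 0.991 between the arrays without hCG and 0.995 between those of 16 h, against 0.943 to 0.951 between the groups. The median absolute difference was 0.192 between the arrays without hCG, 0.153 between those of 16 h and 0.237 to 0.291 across the groups. The arrays without hCG differed from each other in some genes that rose, for example by reading 5.83 and 8.01 for S100a6 and 6.89 and 8.70 for Ctss.

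By 16 h a large part of the measured transcripts had moved, about as many upward as downward. At an adjusted p under 0.05 (limma, Benjamini-Hochberg), 5643 of 13559 genes were called, 41.6% of them. They were 2825 genes that rose, 20.8%, and 2818 that fell, also 20.8%. Over all probe sets, named or not, 10072 of 27022 were called (37.3%), with 5128 higher (19%) and 4944 lower (18.3%). The median change of all tested genes was -0.02, and changes from -1.56 to 1.56 spanned the 5th to 95th percentile. A called gene had a median absolute change of 0.97, and a gene not called 0.19. Of the genes that rose, 1355 did so by at least 2-fold (9.99% of those tested), 457 by at least 4-fold and 64 by at least 16-fold. Of those that fell, 1381 did so by at least 2-fold (10.2%), 379 by at least 4-fold and 34 by at least 16-fold. In 9374 genes (69.1%) both 16 h arrays lay outside the range of the arrays without hCG, so that this property alone separates few genes from the rest. Counts of a list below are read against these shares.

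**Figure D1:**
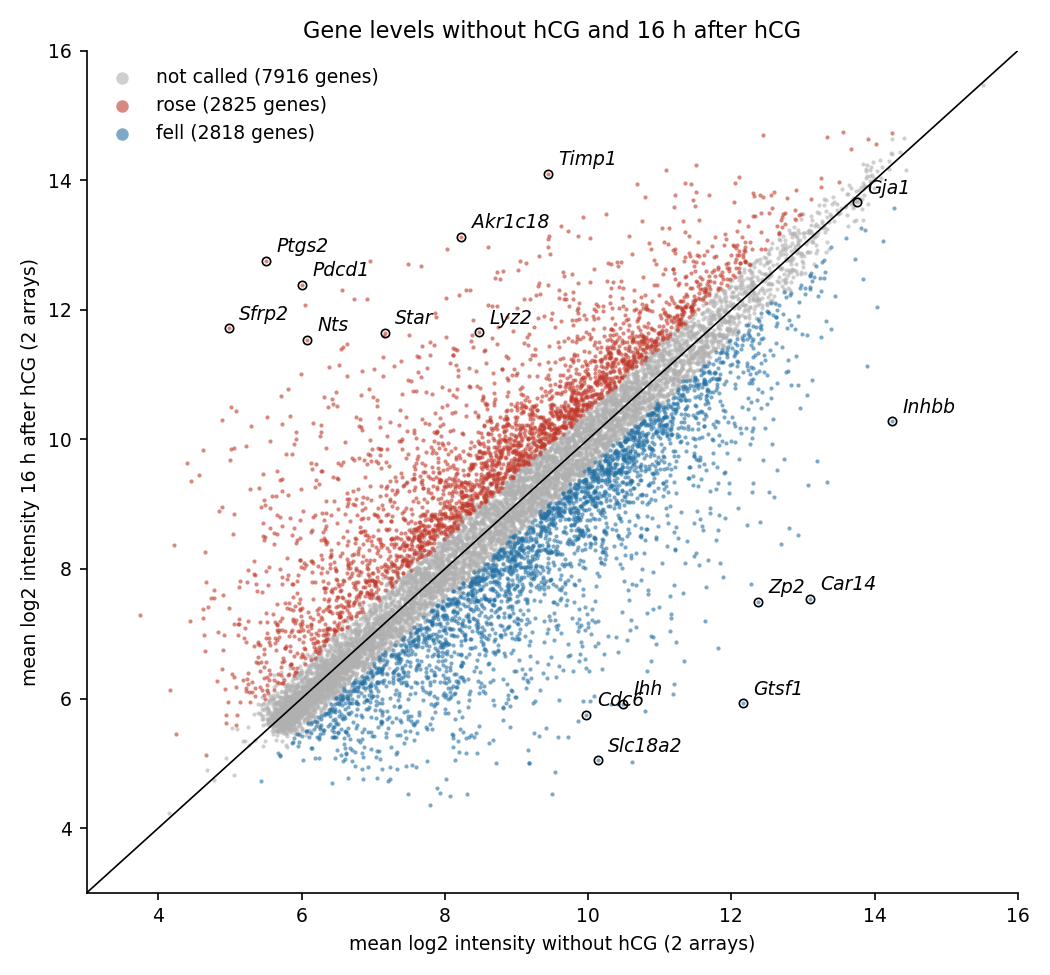
Mean log2 intensity of each tested gene without hCG (horizontal) and 16 h after hCG (vertical), 2 arrays each, with genes that rose in red, genes that fell in blue, genes not called in grey and the diagonal marking no change. The 2825 genes that rose and the 2818 that fell lie on both sides over the whole intensity range, and Gja1 sits on the diagonal.

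The 12 highest rises were led by Ptgs2, Sfrp2 and Pdcd1. Ptgs2, the inducible prostaglandin synthase, read 5.61 and 5.39 without hCG and 12.62 and 12.89 at 16 h, a rise of 7.26 ± 0.17 (log2 difference ± SE, n = 2 arrays a group), or 153-fold. Sfrp2, a secreted Wnt antagonist, went from 4.90 and 5.06 to 11.90 and 11.53, 107-fold. Pdcd1, the gene of the immune checkpoint receptor PD-1, went from 5.78 and 6.23 to 12.49 and 12.29, 83.5-fold. No array of a group overlapped with the other group in these genes, and all 3 had stood between the groups at 8 h. Their means without hCG lie near or under 5.62, below which probe sets were called dim, so the sizes of these folds are uncertain and may be understated. In 28 of the 221 called genes named by rule, the dimmer of the compared group means, whichever group it was, lay under that limit. The sizes of their folds are uncertain in the same way.

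After them came Tmem71 (6.02 ± 0.27), C730049O14Rik (5.80 ± 0.25) and Cited4, a transcriptional co-activator gene (5.74 ± 0.22). Tnfaip6, whose product cross-links hyaluronan, rose by 5.49 ± 0.19, the neurotensin gene Nts by 5.47 ± 0.26 and the membrane protein gene Emp1 by 5.43 ± 0.28. Asgr1, a lectin receptor subunit, rose by 5.42 ± 0.22 and Dusp4, a phosphatase that switches off MAP kinases, by 5.35 ± 0.15. S100a6, a calcium-binding protein gene, rose by 5.24 ± 0.54, the widest error of these 12 because its arrays without hCG lay far apart. Nts had read 13.82 and 13.78 at 8 h and so was past its peak of the 3 collections, at 11.63 and 11.45 by 16 h. Some of these sizes depended on the processing. Under the alternatives described below, Cited4 ran from 3.02 to 6.06 and Emp1 from 2.85 to 5.95, and both stayed called.

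The largest fall was that of Gtsf1, a gametocyte gene of the piRNA pathway. It read 12.16 on both arrays without hCG, 8.71 and 8.50 at 8 h and 5.83 and 6.04 at 16 h, a fall of 75.1-fold. Itih5, an inter-alpha-trypsin inhibitor heavy chain, went from 10.45 and 10.79 to 4.82 and 5.21, 48.7-fold lower, and the carbonic anhydrase gene Car14 from 13.06 and 13.14 to 7.40 and 7.68, 47.1-fold lower. Every array of 16 h lay below every array without hCG in these genes. Umodl1 changed by -5.12 ± 0.23, Slc18a2, which loads amines into vesicles, by -5.09 ± 0.22, and Fam81a by -5.04 ± 0.17. The F-box gene Fbxw21 was 31.9-fold lower. Dppa2, a gene of germ cells and early embryos, and the lysolipid transporter gene Mfsd2a both changed by -4.98. Zp2 (-4.88 ± 0.15), Mycl of the Myc family (-4.76 ± 0.18) and Otor (-4.67 ± 0.24) completed the 12. Mycl ran from -4.92 to -2.39 under the alternatives and stayed called. Adjusted p-values of these 24 genes ran from 5.3e-08 (Ptgs2) to 4.89e-05 (S100a6) by limma with Benjamini-Hochberg adjustment.

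**Figure D2:**
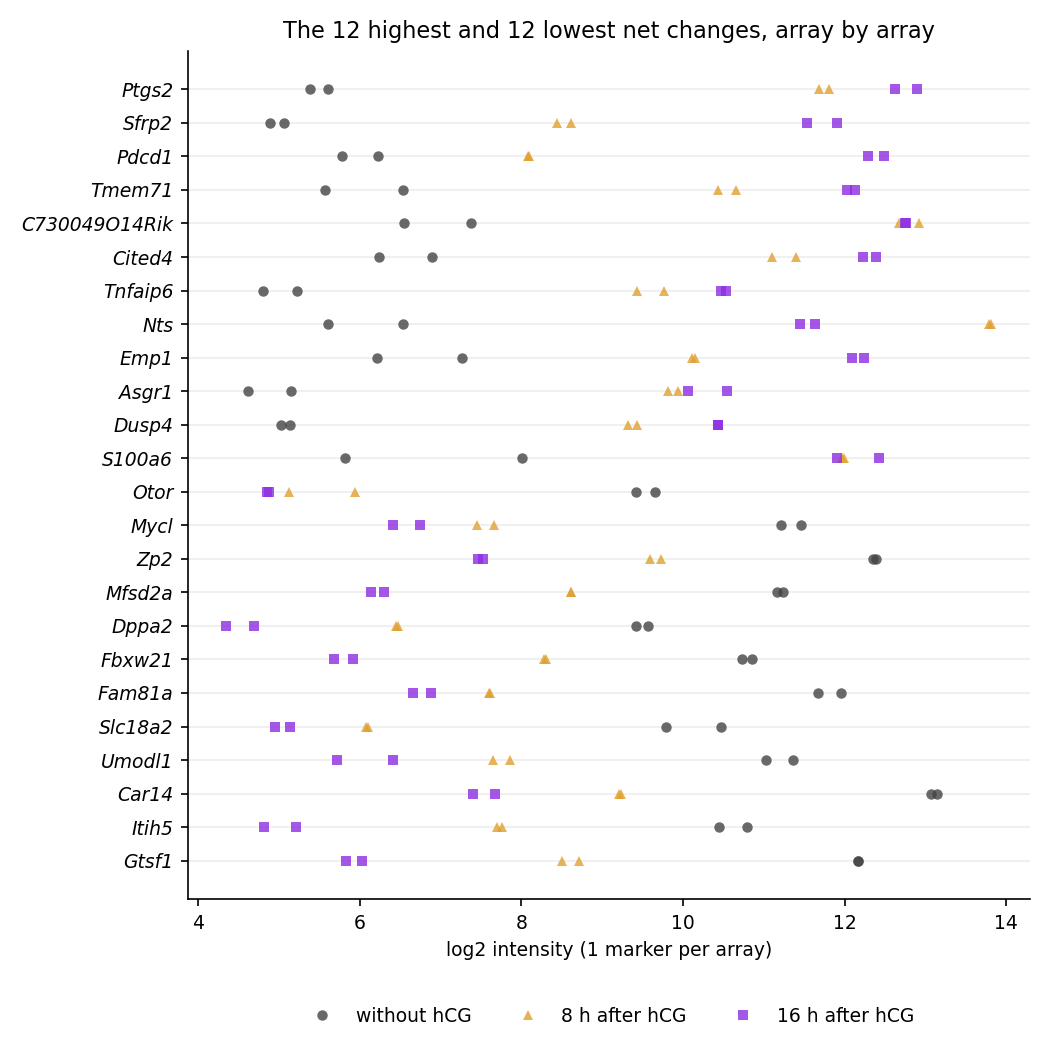
Log2 intensity on each of the 6 arrays for the 12 highest and 12 lowest changes among called genes with a bright group (mean of at least 8.50), with circles for no hCG, triangles for 8 h and squares for 16 h after hCG. Circles and squares do not overlap in any of the 24 genes; S100a6 has the widest pair of circles (5.83 and 8.01), and in Nts the triangles lie above the squares.

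Genes of matrix and cumulus expansion were mostly higher at 16 h than without hCG. Of 13 tested, 9 rose and 2 fell, with a median change of 1.39 against -0.02 over all tested genes. Beside Ptgs2 and Tnfaip6, the pentraxin gene Ptx3, which anchors hyaluronan, read 6.55 and 6.72 without hCG and 11.35 and 11.61 at 16 h, 28.8-fold higher. Cd44, the cell surface receptor for hyaluronan, went from 4.93 and 6.20 to 9.78 and 10.16, a rise of 4.41 ± 0.34. The synthase gene Has2 read 5.78 and 5.67 without hCG, 9.01 and 8.92 at 8 h and 7.07 and 7.05 at 16 h, so its net rise was 1.34 ± 0.15. The matrix receptors and proteases had thus not all moved alike, for Cd44, Ptgs2 and Tnfaip6 stood higher at 16 h than at 8 h, while Has2, Ptx3 and Adamts1, which cleaves versican, stood lower. Adamts1 had a net rise of 1.39 ± 0.19. Lyve1, another hyaluronan receptor, had fallen back from 12.31 and 12.42 at 8 h to 6.85 and 6.07, a net rise of 1.57 ± 0.23 by its brighter probe set, the other tested one not being called. Hmmr, a hyaluronan receptor that also serves the mitotic spindle, changed by -0.67 ± 0.16, and by -0.53 and without a call when replicate 2 of 16 h was left out. Its 5 probe sets disagreed, with 1 called higher and 1 lower, and their mean was -0.06.

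Among EGF-like factors and receptors, 7 of 10 tested genes rose and 2 fell, with a median of 1.33. The ligand gene Ereg read 4.72 and 4.53 without hCG and 9.81 and 9.87 at 16 h, 37.2-fold higher. Btc, another ligand, went from 6.15 and 6.81 to 10.77 and 10.67, 18.9-fold higher. Hbegf, a ligand of the same family, moved the other way, from 8.08 and 8.39 to 6.14 and 6.52, 3.76-fold lower. Their receptor gene Egfr read 9.24 and 9.25 without hCG and 8.24 and 8.07 at 16 h, a change of -1.09 ± 0.17, although 4 of its 6 tested probe sets were not called. Errfi1, a feedback inhibitor of the receptor, rose by 1.86 ± 0.15.

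Prostaglandin genes had no common direction. Of 13 tested, 4 rose and 3 fell, with a median of -0.02. Ptger2, a receptor for prostaglandin E2, went from 6.26 and 7.35 to 9.78 and 9.64, a rise of 2.90 ± 0.31, and the transporter gene Slco2a1 from 7.39 and 7.99 to 10.34 and 10.30 (2.63 ± 0.21). Hpgd, which inactivates prostaglandins, went from 12.03 and 12.17 to 9.02 and 8.86, 8.91-fold lower. Ptges, the synthase that acts after Ptgs2, read 9.70 and 9.52 without hCG and 7.93 and 7.76 at 16 h, 3.41-fold lower. The receptor and the inducible synthase were thus higher while the breakdown enzyme and the terminal synthase were lower.

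Enzymes that make the sugar precursors of hyaluronan rose in 5 of 8 tested genes and fell in 0, with a median of 0.62. Without replicate 1 or without replicate 2 of 16 h the count that rose was 3. Ugdh, which makes glucuronic acid precursor, rose by 1.46 ± 0.16 and Gfpt2, of the hexosamine pathway, by 1.07 ± 0.15. Ugp2 (0.62 ± 0.18) and Uap1 (0.61 ± 0.15) were the members that lost their calls, Ugp2 also without replicate 1 of the arrays without hCG (0.42).

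Several genes that were high at 8 h were not called between 16 h and no hCG. Cd34, a sialomucin gene of cell adhesion, read 7.11 and 7.77 without hCG, 12.21 and 12.30 at 8 h and 7.70 and 7.33 at 16 h. The groups overlapped, and its net change was 0.07 (95% interval -0.44 to 0.58, adjusted p = 0.848). Zbtb16, a zinc finger transcription factor gene, had a net change of -0.12 (-0.48 to 0.24) after 9.06 and 9.02 at 8 h. Cldn1, a tight junction gene, had one of -0.04 (-0.40 to 0.33) after 9.36 on both arrays at 8 h. Pgr, the progesterone receptor gene, read 4.98 and 5.21 without hCG, 8.13 and 7.71 at 8 h and 5.45 and 5.60 at 16 h, and its net change of 0.43 (0.01 to 0.84) was not called (adjusted p = 0.104). On all compared arrays Pgr lay under the dim limit of 5.62, and it was tested only through its 8 h values. Intervals of this width do not show that the levels were the same, only that differences beyond them were not seen.

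Other genes with 8 h values above both groups stopped above or below the start. On the list of the progesterone receptor and its ovulatory targets, 9 of 15 tested genes rose and 1 fell, with a median of 0.67. Prkg2, a cGMP-dependent kinase gene, had come down from 12.18 and 12.34 to 10.75 and 10.55 and was still 20.1-fold above the 6.36 and 6.28 of complexes without hCG. The chemokine receptor gene Cxcr4 was still 5.30-fold above, at 7.49 and 7.30, and Edn2, an endothelin gene, 7.63-fold, at 9.01 and 8.32. Snap25, a vesicle fusion gene, read 6.75 and 5.52 at 16 h, a spread that leaves its net rise at 1.97 ± 0.35. Pparg, a nuclear receptor gene on this list, was unlike these in not standing above the start at 8 h. Its 12.25 and 11.67 at 8 h overlapped the 12.10 and 11.78 without hCG. By 16 h it lay at 9.88 and 9.70, 4.44-fold below the start. Below the start were also Scara5, a ferritin receptor gene (9.14 and 9.19 without hCG, 7.31 and 7.41 at 16 h), and Gsta4, a glutathione transferase gene (11.92 and 11.65, then 8.55 and 8.34). Scara5 had read 12.13 and 12.20 and Gsta4 13.47 and 13.44 at 8 h.

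**Figure D3:**
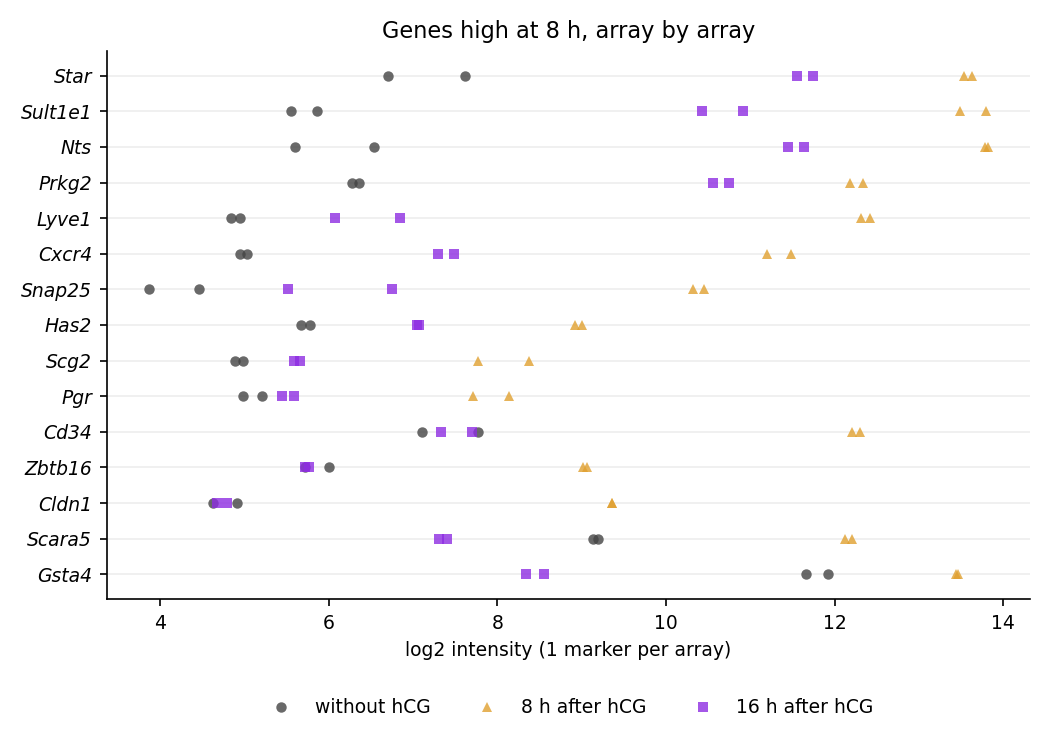
Log2 intensity on each array of 15 genes with high values at 8 h, with circles for no hCG, triangles for 8 h and squares for 16 h after hCG. The 16 h squares lie above the circles in Star, Sult1e1, Nts and Prkg2, among them in Cd34 (net change 0.07), Zbtb16 and Cldn1, and below them in Scara5 and Gsta4.

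Steroid genes showed a net shift between enzymes. Of 14 tested, 7 rose and 3 fell, with a median of 0.75. Star, whose product brings cholesterol into mitochondria, read 6.71 and 7.62 without hCG and 11.74 and 11.56 at 16 h, 22.4-fold higher. Cyp11a1, the side-chain cleavage enzyme that starts steroid synthesis, went from 11.40 and 11.99 to 13.73 and 13.81, 4.21-fold higher. Hsd3b1, which makes progesterone, was bright throughout, at 13.57 and 13.72 and then 13.88 and 13.98, and its difference of 0.29 (95% interval -0.06 to 0.63) was not called. Genes that inactivate steroids were among the strongest. Akr1c18, which breaks down progesterone, read 8.28 and 8.18 without hCG, 10.57 and 10.45 at 8 h and 13.09 and 13.17 at 16 h, 29.8-fold higher. Sult1e1, the estrogen sulfotransferase gene, was 31.1-fold higher at 10.91 and 10.42, though below its 8 h values. Cyp17a1, the androgen-making enzyme of theca cells, went from 9.35 and 8.63 to 6.15 and 5.90, 7.82-fold lower. It is also a marker of theca, and 7 of 10 theca and stroma genes fell, 0 rose, with a median of -1.44. The log2 summed level of that list was 11.88 and 11.97 without hCG and 10.41 and 10.30 at 16 h, and the part of theca cells in the fall of Cyp17a1 was not tested.

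Cholesterol genes moved less. Of 19 tested, 8 rose and 2 fell, with a median of 0.30, and 5 rose without replicate 2 of the arrays without hCG or without either 16 h array. Cyp51 rose by 1.36 ± 0.17 and Hsd17b7, which also serves estrogen synthesis, by 1.12 ± 0.18. Mvk (-1.47 ± 0.17) and Fdft1 (-1.05 ± 0.15), enzymes of the same pathway, fell. Sqle, which makes the oxidised precursor of sterols, had read 12.39 and 12.52 at 8 h and was at 11.30 and 11.32 at 16 h against 11.33 and 11.42 without hCG. Scarb1, the receptor that takes up cholesterol from lipoproteins, rose by 1.43 ± 0.17.

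Genes of the growing follicle were lower almost throughout. Of 22 tested granulosa and follicular genes, 0 rose and 20 fell, with a median of -2.08. Ihh, the hedgehog ligand that granulosa cells send to theca, read 10.55 and 10.44 without hCG and 5.74 and 6.10 at 16 h, 23.8-fold lower. Inhbb, a subunit of inhibin B and activin, went from 14.18 and 14.30 to 10.17 and 10.40, 15.6-fold lower. Fshr, the receptor for the growth hormone of the follicle, read 12.26 and 12.16 without hCG, 11.07 and 10.99 at 8 h and 8.63 and 8.72 at 16 h, 11.6-fold lower. Each of these genes was lower on both 16 h arrays than on any array without hCG. Ccnd2, the D cyclin of granulosa cells, was 8.19-fold lower, with 7 of 7 tested probe sets called, and Igf1 6.19-fold, with 4 of 4. Inhba was 3.98-fold lower by its brighter probe set, the other tested one not being called.

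The falls were not of 1 size. Inha, the common inhibin subunit, read 14.27 and 14.28 without hCG and still 13.52 and 13.63 at 16 h, a change of -0.70 ± 0.17 that was not called without replicate 1 of 16 h (-0.65). Amh, the anti-Müllerian hormone gene, changed by -0.44 ± 0.15 at a low level, from 7.11 and 7.14 to 6.67 and 6.70 (adjusted p = 0.0372), and its call was lost without any single array, with values from -0.46 to -0.43. Gja1 had a net change of -0.09 (95% interval -0.48 to 0.30) by its brightest probe set, 1 of 6 tested probe sets being called lower, and the mean of all its probe sets was -0.43 and called.

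Genes of meiotic arrest moved in both directions. Of 14 tested, 5 rose and 7 fell, with a median of -0.51. The arrest depends on cGMP that cumulus cells make and pass to the oocyte. Nppc, the peptide that stimulates cGMP synthesis, read 8.83 and 8.52 without hCG and 5.97 and 5.96 at 16 h, 6.52-fold lower, and its receptor gene Npr2 12.43 and 12.14, then 10.11 and 9.93, 4.79-fold lower. Gja4, the gap junction gene between oocyte and cumulus, went from 11.02 and 10.74 to 6.72 and 6.44, 19.7-fold lower. Pde5a, which breaks down cGMP, rose from 5.67 and 6.05 to 9.75 and 9.80, 15.1-fold, with 3 of 3 tested probe sets called. Pde4d, which breaks down cAMP, rose by 2.74 ± 0.17. The ligand, its receptor and the oocyte's junction gene were thus lower while genes of cyclic nucleotide breakdown were higher.

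Cell cycle genes fell without exception among those tested. All 26 tested DNA replication genes fell, with a median of -1.83, and all 25 tested genes of mitosis and the kinetochore fell, with a median of -1.55, against 20.8% of all tested genes. Cdc6, which loads the replicative helicase, read 9.79 and 10.17 without hCG, 8.45 and 8.38 at 8 h and 5.92 and 5.58 at 16 h, 18.7-fold lower. Helicase subunits fell by different amounts, Mcm3 from 11.58 and 11.61 to 8.66 and 8.53 (8.00-fold, 5 of 5 probe sets) and Mcm6 from 11.90 and 12.19 to 10.36 and 10.16 (3.45-fold). Gins1, a helicase partner, was 8.29-fold lower and Pole, a replicative polymerase subunit, 7.07-fold. Pcna, the sliding clamp, stayed bright at 12.30 and 12.11 and was 2.00-fold lower. Rrm2, which makes deoxynucleotides, had still read 11.65 and 12.27 at 8 h, beside 11.34 and 12.01 without hCG, and was then at 10.08 and 10.09.

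Among mitotic genes, the checkpoint kinase gene Ttk (10.17 and 10.14, then 8.03 and 7.74) was 4.81-fold lower and Birc5, of the chromosomal passenger complex, 4.79-fold. Its partner kinase gene Aurkb was 4.29-fold lower and the proliferation marker Mki67 4.08-fold. Cdk1, the kinase that drives mitosis and is also held by the oocyte for meiosis, went from 12.30 and 12.19 to 11.06 and 10.69, 2.58-fold lower. The oocyte holds some of these messages too, and its part in their levels was not tested. Leaving out single arrays left 22 or more replication genes and 20 or more mitotic genes called lower and 0 higher.

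Promoter sequences of the mitotic genes are shown for the letters of known cell cycle motifs. In the 250 bases before the start, searched on both strands, TTTGAA, the letters of the cell cycle homology region, were found in 7 of 22 mitotic genes with a RefSeq promoter (31.8%). They occur in 12.9% of the 10914 tested genes with a promoter and in 18.3% of all 27025 genes with one, in 14.2% of genes that fell, in 3 of 21 replication genes (14.3%) and in 6 of 16 neuronal and secretion genes (37.5%). CCAAT was in 17 of the 22 mitotic genes (77.3%) and 13 of 21 replication genes (61.9%), against 39.9% of tested genes, 45.3% of genes that fell and 37.5% of those that rose. It was also in 16 of 16 cholesterol genes, which moved in both directions, and in 18 of 22 genes of the unfolded protein response (81.8%). TGACGTCA, the cyclic AMP response element, was in 2.83% of tested genes and 2.52% of those that rose. None of these motifs contains another, and a match is a description of letters, not of a bound site. The 3 windows with the match nearest to the start are these, from the RefSeq promoters of build GRCm38.p6, given 5′ to 3′ on the gene's strand, with TTTGAA or its reverse complement TTCAAA in capitals.
Cdk1, chr10:69352913-69352957, minus strand: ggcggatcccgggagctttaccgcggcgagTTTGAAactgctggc
Cdc20, chr4:118437344-118437391, minus strand: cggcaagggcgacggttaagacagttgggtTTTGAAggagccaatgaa
Kif11, chr19:37376333-37376381, plus strand: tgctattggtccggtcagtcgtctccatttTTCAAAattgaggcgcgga
In Cdk1 the match ends 9 bases before the start, in Cdc20, the activator of the anaphase-promoting complex, 12 bases and in Kif11, a spindle motor gene, 13 bases. Cdc20 changed by -1.16 ± 0.17 and Kif11 by -1.56 ± 0.17.

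Genes that hold cells out of the cycle moved the other way in part. Among D cyclins and inhibitors of cyclin-dependent kinases, 8 of 16 tested genes rose and 4 fell, with a median of 0.68. Cdkn1a, the gene of p21, read 9.17 and 8.86 without hCG and 11.93 and 12.12 at 16 h, 8.08-fold higher. Gadd45a, a growth arrest gene, went from 7.31 and 7.81 to 10.69 and 10.81, 9.15-fold higher. Cdkn1b, the gene of p27, went from 9.32 and 10.24 to 11.90 and 11.78, 4.16-fold higher. Ccnd1, the D cyclin of many other tissues, was low throughout, and its difference of 0.31 (95% interval -0.09 to 0.70) was not called.

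Transcription factors and feedback genes of ERK signalling were mixed. Of 29 tested, 14 rose and 7 fell, with a median of 0.32. Egr3 read 5.46 and 5.59 without hCG and 10.10 and 10.60 at 16 h, 28.4-fold higher by its brighter probe set, the other tested one not being called. Dusp6, a phosphatase specific for ERK, went from 8.06 and 8.69 to 11.48 and 11.73, 9.38-fold higher, and Runx1, an ovulatory transcription factor gene, from 7.84 and 7.88 to 10.03 and 10.80, 5.87-fold higher. The factor gene Cebpb rose by 1.66 ± 0.16. Members of the AP-1 family fell. Fosb went from 11.89 and 11.74 to 8.28 and 8.92, 9.26-fold lower, and Fos from 14.07 and 14.16 to 12.80 and 13.33, 2.07-fold lower. Both 16 h arrays lay below those without hCG, and Fosb had still been at 11.16 and 10.80 at 8 h. Nr4a1 differed by -0.19 (95% interval -0.62 to 0.24).

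Oocyte genes fell, every tested one, but by very different amounts. All 24 tested fell, with changes from -4.88 to -0.52 and a median of -1.42. The log2 summed level of the list was 16.65 and 16.45 without hCG, 14.42 and 14.33 at 8 h and 15.00 and 14.80 at 16 h, so it was lowest at 8 h. Among the zona genes, beside Zp2, Zp3 went from 12.46 and 12.08 to 8.19 and 7.35, 22.7-fold lower, and Zp1 from 11.30 and 11.02 to 7.49 and 7.12, 14.5-fold lower. Genes of the subcortical maternal complex, which embryos need to start cleavage, fell with them. Padi6 went from 12.98 and 12.89 to 8.74 and 8.31, 21.3-fold lower, Ooep was 18.0-fold lower and Nlrp5 7.94-fold. Nobox, a transcription factor gene of the growing oocyte, was 11.6-fold lower, from 10.53 and 9.91 to 6.59 and 6.78.

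A further set of oocyte genes was well below the start at 8 h and closer to it at 16 h. Gdf9 read 13.40 and 13.08 without hCG, 11.31 and 11.34 at 8 h and 12.56 and 12.41 at 16 h, a net change of -0.75 ± 0.17. Bmp15, its partner growth factor gene, read 9.33 and 9.49, then 7.21 and 7.39, then 8.74 and 8.52, a net change of -0.78 ± 0.16. Mos, the kinase that holds the egg in metaphase, read 11.07 and 10.95, then 8.48 and 8.25, then 9.64 and 9.44, 2.77-fold below the start. In each of them the 16 h arrays lay between the 8 h arrays and those without hCG, without overlap. By contrast Zp1, Zp2, Zp3, Padi6 and Ooep were lower at 16 h than at 8 h on every array. Kit and Zar1, the receptor of Kit ligand and a maternal-effect gene, were 2.57-fold and 2.39-fold below the start.

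**Figure D4:**
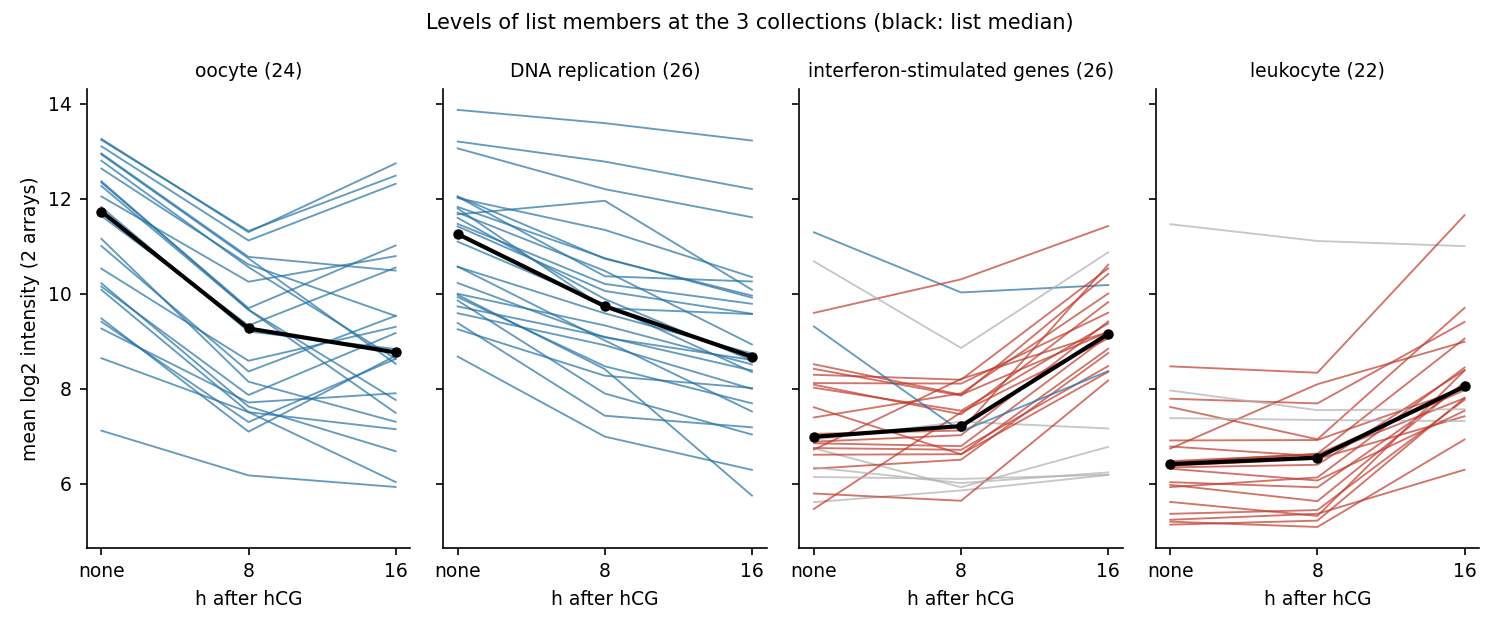
Mean log2 intensity (2 arrays) of each tested member of 4 lists without hCG and 8 h and 16 h after it, in blue for genes that fell between no hCG and 16 h, in red for those that rose and in grey for those not called, with the median in black. All 24 oocyte genes and all 26 replication genes are lower at 16 h than without hCG, some oocyte genes turn upward after 8 h, and the interferon-stimulated and leukocyte medians rise after 8 h.

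Interferon-stimulated genes were higher at 16 h as a group. Of 26 tested, 18 rose and 2 fell, with a median of 1.73. Usp18, which removes the ubiquitin-like protein Isg15 and restrains interferon signalling, read 5.17 and 5.77 without hCG, 7.41 and 7.60 at 8 h and 9.66 and 8.46 at 16 h, a rise of 3.59 ± 0.34. Oasl2, an antiviral synthetase-like gene, read 7.14 and 6.96, then 7.03 and 7.21, then 11.05 and 10.18, 11.8-fold higher. Irf9 and Irf7, transcription factor genes of the pathway, rose by 2.61 ± 0.19 and 2.53 ± 0.29, to 10.24 and 9.77 and to 9.90 and 8.94. In all 4 genes replicate 1 of 16 h was the higher, and without it the median of the list was 1.29. The members that fell were Irf1, a transcription factor gene that other cytokines also induce (-1.11 ± 0.17), and Psmb9, an immunoproteasome subunit (-0.94 ± 0.16). Ifit1 was too dim to be tested, at 4.55 and 4.67 without hCG and 6.58 and 5.56 at 16 h.

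The promoters of interferon-stimulated genes are shown because the list is defined by a response that acts through a known element. The core of the interferon response element, GAAA and GAAA with any 2 bases between them, was found on either strand within 250 bases before the start of 8 of 23 tested genes of the list with a promoter (34.8%). Among the members that rose it was in 4 of 16 (25%), against 2.94% of all tested genes, 3.36% of those that rose and 3.46% of all 27025 genes. It was in 0 of 2 members that fell, so the list's other matches were in members not called. Its share was thus lower among the members that rose than over the whole list. The 4 windows of members that rose follow, same build and orientation, with the match nearest to the start, or its reverse complement, in capitals. Oas1a and Gbp3 hold 2 matches each, the further one starting in lower case and overlapping the marked one.
Oas1a, chr5:120907526-120907569, minus strand: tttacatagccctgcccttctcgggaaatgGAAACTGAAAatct
Rsad2, chr12:26456533-26456602, minus strand: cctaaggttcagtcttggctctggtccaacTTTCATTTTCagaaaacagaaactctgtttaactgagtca
Gbp2, chr3:142620574-142620643, plus strand: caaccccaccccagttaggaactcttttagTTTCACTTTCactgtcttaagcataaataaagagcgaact
Gbp3, chr3:142559975-142560043, plus strand: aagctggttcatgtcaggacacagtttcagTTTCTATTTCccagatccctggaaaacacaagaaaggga
Rsad2, the gene of the antiviral enzyme viperin, read 6.88 and 6.83 without hCG and 9.38 and 8.85 at 16 h (2.26 ± 0.19). Oas1a, a synthetase that senses double-stranded RNA, rose by 1.35 ± 0.34. The guanylate-binding protein genes Gbp2 and Gbp3, close relatives whose probes may share transcripts, rose by 2.43 ± 0.30 and 2.38 ± 0.33.

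Genes of innate immunity and cytokines moved in both directions around a few large rises. Of 29 tested, 12 rose and 2 fell (4 fell without replicate 1 of the arrays without hCG), with a median of 0.36. Beside Pdcd1, the lymphocyte surface gene Cd52 read 5.76 and 6.09 without hCG, 7.10 and 7.50 at 8 h and 10.07 and 9.95 at 16 h, 17.0-fold higher. Saa3, an acute phase gene, read 7.63 and 8.13, then 7.61 and 7.74, then 12.03 and 11.74, 16.1-fold higher. Cd14, a co-receptor for bacterial lipopolysaccharide, went from 5.98 and 6.41 to 9.29 and 9.23, 8.38-fold higher, while the receptor gene Tlr4 differed by 0.19 (95% interval -0.15 to 0.54). The cytokine gene Il6 went from 4.70 and 4.57 to 7.29 and 6.68, 5.11-fold higher, below its 8 h values of 8.05 and 8.17. The chemokine gene Cxcl1 went from 11.12 and 11.16 to 9.50 and 9.40, 3.23-fold lower.

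Leukocyte markers rose with these genes. Of 22 tested, 19 rose and 0 fell, with a median of 1.89, and the log2 summed level of the list was 12.37 and 12.34 without hCG, 12.19 and 12.14 at 8 h and 13.51 and 13.50 at 16 h. Ptprc, the gene of the common leukocyte antigen CD45, read 4.95 and 5.33 without hCG, 4.90 and 5.55 at 8 h and 7.64 and 7.98 at 16 h, 6.35-fold higher. Lyz2, the lysozyme gene of macrophages and neutrophils, whose copy Lyz1 can share its probes, went from 8.03 and 8.92 to 11.52 and 11.79, 9.08-fold higher. The integrin gene Itgb2 was 6.80-fold higher. The complement genes C1qc and C1qa of macrophages rose by 2.61 ± 0.16 and 2.52 ± 0.19 on the log2 scale, and the macrophage growth factor receptor gene Csf1r was 4.76-fold higher. The neutrophil gene S100a8 read 5.25 and 5.15 without hCG and 7.04 and 6.82 at 16 h (1.73 ± 0.16). The members not called were Laptm5, the T cell gene Cd3e and Ccr2, at -0.46, -0.39 and -0.06. Without hCG, Ptprc and S100a8 lay under the dim limit on both arrays and at 16 h above it. That limit was set on the mean of all 6 arrays. Ptprc was under it at 8 h too and was tested only through its 16 h values. Members low without hCG could thus enter the count by being high at 16 h, and 2 of 24 stayed too dim to be tested. The count of 19 therefore leans toward members that rose. The part of leukocytes in the rise of the interferon-stimulated and innate immune genes was not tested.

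**Figure D5:**
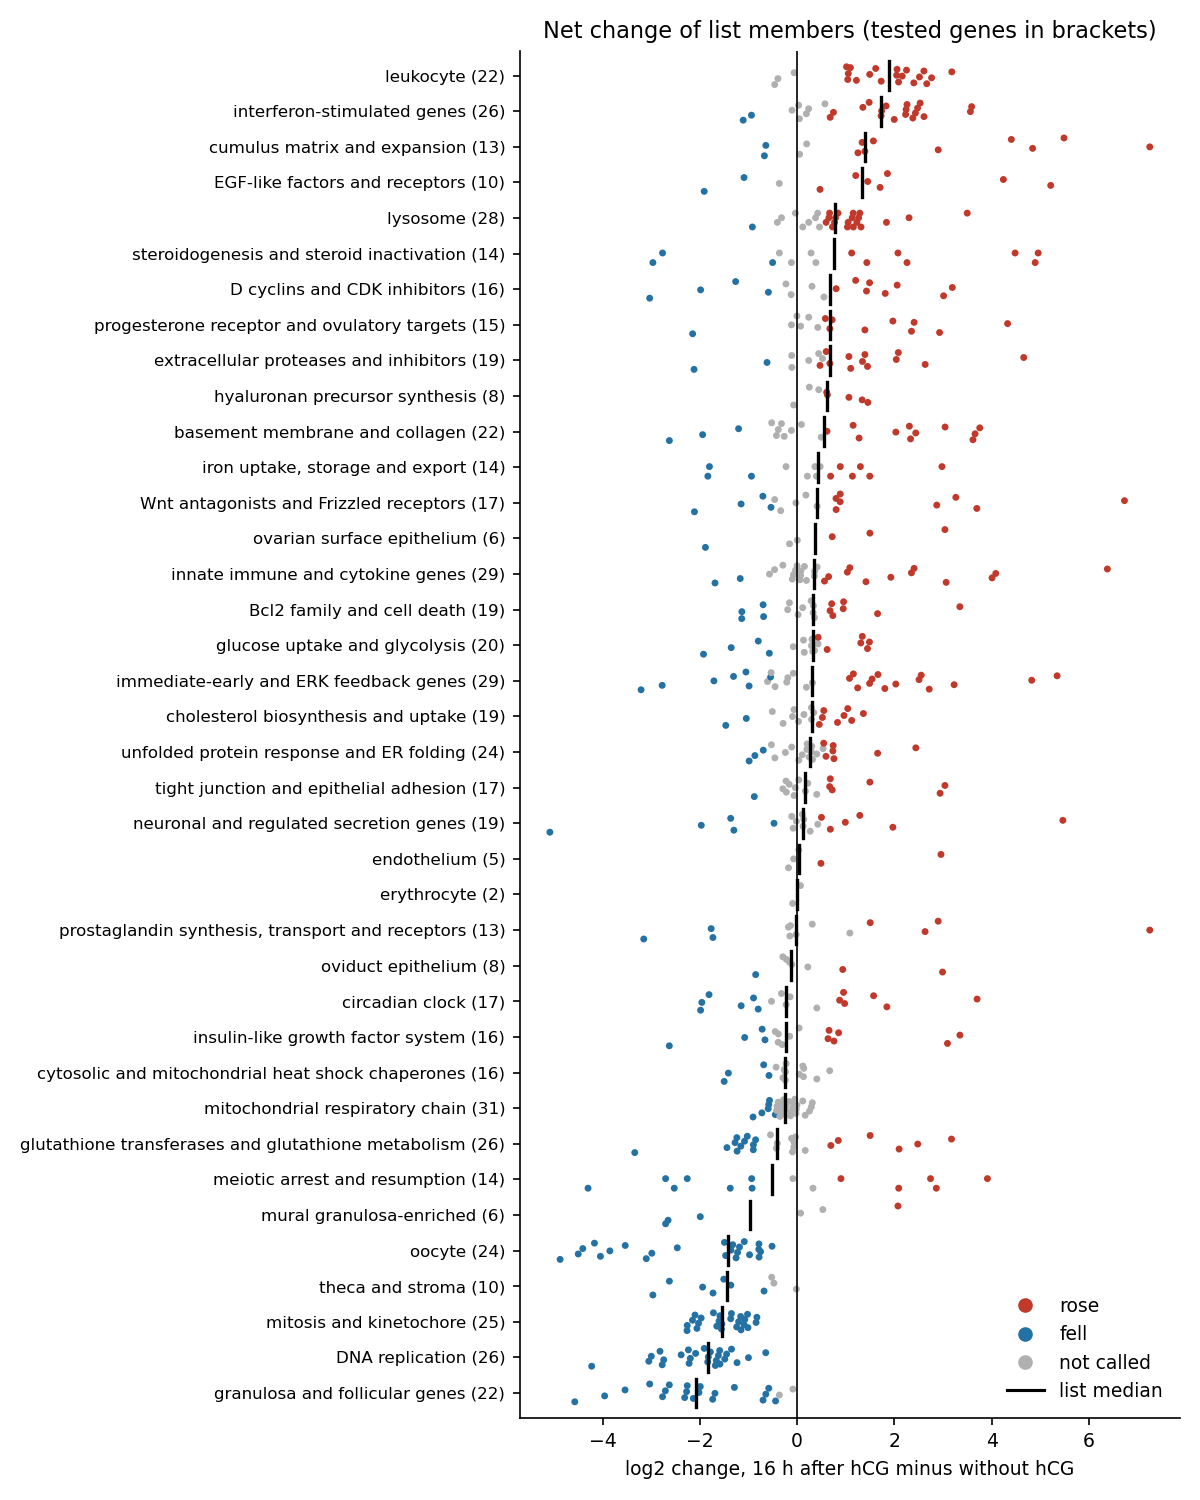
Log2 change (16 h after hCG minus no hCG) of every tested member of the 38 lists, 1 dot per gene, red where it rose, blue where it fell and grey where it was not called, with the list median as a black bar and the number of tested genes in brackets. Lists are ordered by median, from 1.89 for leukocyte genes to -2.08 for granulosa and follicular genes.

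Markers of other cells that a collection could bring along moved unevenly. Of 8 tested oviduct epithelium genes, 2 rose and 1 fell, with a median of -0.13, and 3 were higher and 5 lower. The list's log2 summed level went from 11.13 and 11.20 to 12.44 and 12.15, and at 16 h Ovgp1 made up most of that level. Ovgp1, the glycoprotein that the oviduct secretes, read 7.90 and 9.58 without hCG, 7.30 and 8.46 at 8 h and 11.95 and 11.52 at 16 h, a rise of 2.99 ± 0.50 (adjusted p = 0.00114). The part of oviduct material in these values was not tested. The cilium gene Rsph1 rose by 0.94 ± 0.15, and the epithelial transcription factor gene Elf3 changed by -0.85 ± 0.18. The oviduct factors Foxj1 and Pax8 were under the dim limit in every array, at 5.25 to 5.60 and 4.52 to 4.86. Of 6 tested ovarian surface epithelium genes, 3 rose, all keratins, and 1 fell. Krt18 reached 10.47 and 10.07 at 16 h, 8.23-fold higher than without hCG, and Krt8 was 2.82-fold higher, while Upk3b changed by -1.89 ± 0.16 and Msln and Krt7 were too dim to be tested. Krt19, at 0.72 ± 0.21, was not called without either 16 h array or replicate 1 of the arrays without hCG (0.46 to 0.82).

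Of 5 tested endothelium genes, 2 rose and 0 fell, with a median of 0.03, and 6 of 11 were too dim to be tested. The list's log2 summed level was 9.70 and 9.65 without hCG and 10.07 and 10.13 at 16 h. Its member Cdh5 went from 5.09 and 5.87 to 8.49 and 8.39, 7.78-fold higher, having already read 8.15 and 8.52 at 8 h. Pecam1, which defines endothelium, was under the dim limit on every array, with means of 4.92 without hCG and 4.86 at 16 h. Kdr changed by 0.49 ± 0.15, a call lost in each fit that left out an array except replicate 2 without hCG. Of 6 genes enriched in mural granulosa cells, 1 rose and 3 fell. Of 2 erythrocyte genes tested, 0 were called, and the hemoglobin gene Hba-a1 was at 4.56 to 4.90. The log2 summed level of the mural granulosa list was 14.40 and 14.38 without hCG and 14.13 and 14.32 at 16 h, and that of the erythrocyte list 8.73 and 8.86, then 8.43 and 9.05.

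Matrix proteins and the enzymes that cut them rose in part. Of 22 tested basement membrane and collagen genes, 11 rose and 3 fell, with a median of 0.56, and 5 fell without replicate 1 of the arrays without hCG. Col4a2, a chain of basement membrane collagen, read 7.25 and 8.11 without hCG and 11.39 and 11.49 at 16 h, 13.5-fold higher, and its partner chain Col4a1 was 12.6-fold higher. Col18a1 went from 7.82 and 7.88 to 11.44 and 11.49, 12.3-fold higher, and the fibronectin gene Fn1 from 8.34 and 8.44 to 11.23 and 11.64, 8.25-fold higher. The fibrillar collagen genes split. Col1a2 was 6.18-fold and Col3a1 3.85-fold lower, Col1a1 changed by -0.52 ± 0.21 and was not called (adjusted p = 0.0817), and Col5a1 and Col5a2 rose by 2.44 ± 0.20 and 2.31 ± 0.22. Of 19 proteases and inhibitors, 12 rose and 2 fell, with a median of 0.67. Timp1, an inhibitor of metalloproteases, read 9.45 and 9.43 without hCG and 14.00 and 14.20 at 16 h, 25.3-fold higher. Adamts4 was 6.21-fold and the membrane protease gene Mmp14 4.24-fold higher, and Adamts5 4.35-fold lower. Plat, the tissue plasminogen activator gene, changed by -0.62 ± 0.16 and was not called without either 16 h array.

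Lysosomal genes were higher in large part, with 19 of 28 tested up, 1 down and a median of 0.78. Psap, which supplies activators of sphingolipid breakdown, went from 11.60 and 11.42 to 13.87 and 13.75, 4.93-fold higher. The cathepsin genes Ctsc, Ctsb and Ctsd rose by 1.84 ± 0.15, 1.27 ± 0.15 and 1.16 ± 0.16, while Ctsh changed by -0.92 ± 0.15. Ctss, a cathepsin of antigen-presenting cells, rose by 3.50 ± 0.50 from arrays that lay apart, and it moved with the leukocyte markers, whose part in it was not tested. The call of Lamp1 (0.79 ± 0.19) was lost without replicate 2 of 16 h.

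Wnt components included some of the widest changes. Of 17 tested antagonists, ligands and Frizzled receptors, 8 rose and 4 fell, with a median of 0.41, and 2 fell without either 16 h array. Beside Sfrp2, its relative Sfrp4 read 10.08 and 11.28 without hCG and 13.92 and 13.97 at 16 h, 9.61-fold higher. The ligand gene Wnt4 went from 8.81 and 8.74 to 12.32 and 12.63, 13.0-fold higher, and the receptor gene Fzd1 from 7.72 and 7.92 to 10.60 and 10.79 after 12.47 and 12.59 at 8 h. Frzb, another secreted antagonist, went from 6.49 and 7.24 to 4.71 and 4.79, 4.32-fold lower. Axin2, a widely used target of canonical Wnt signalling, changed by -0.70 ± 0.18, a call lost without replicate 1 of the arrays without hCG (-0.56) and without either 16 h array (-0.75 and -0.65).

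In the insulin-like growth factor system, the ligand was lower and some binding proteins higher. Of 16 tested genes, 6 rose and 4 fell, with a median of -0.23, and 3 rose without replicate 2 of 16 h and 2 fell without replicate 1 of 16 h. Igfbp6 went from 7.73 and 7.76 to 11.24 and 10.96, 10.2-fold higher, and Igfbp4 from 10.02 and 10.03 to 13.05 and 13.18, 8.54-fold higher. Igfbp2 was 2.11-fold lower. The receptor gene Igf1r differed by 0.04 (95% interval -0.43 to 0.51), and 0 of its 5 tested probe sets were called.

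Lists of energy and stress genes had medians between -0.24 and 0.32, though single members moved further. Of 20 glucose uptake and glycolysis genes, 6 rose and 4 fell, with a median of 0.32. The hexokinase genes Hk1 and Hk2 rose by 1.49 ± 0.18 and 1.34 ± 0.18 and the glucose transporter gene Slc2a1 by 1.31 ± 0.19. Ldhb was 2.56-fold lower and the lactate and pyruvate transporter gene Slc16a1 went from 12.27 and 12.56 to 10.46 and 10.52, 3.80-fold lower, while Ldha differed by 0.13 (95% interval -0.25 to 0.51). Of 31 respiratory chain genes, 0 rose and 6 fell (19.4%, close to the 20.8% of all genes), with a median of -0.24, and 2 fell without either 16 h array and 13 after quantile normalization. Cox4i1 differed by -0.02 (95% interval -0.36 to 0.31). Of 24 genes of the unfolded protein response, 7 rose and 3 fell, led by the disulfide isomerase gene Pdia4 (9.98 and 10.59, then 12.68 and 12.77, 5.43-fold higher), and 3 rose without either 16 h array. Hspa5, the main chaperone of the endoplasmic reticulum, differed by -0.11 (95% interval -0.47 to 0.25).

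Of 16 cytosolic and mitochondrial heat shock chaperones, 0 rose and 4 fell, with a median of -0.24. Of the no hCG arrays, dropping replicate 1 moved the median to -0.37 and dropping replicate 2 to -0.10; 1 rose when that replicate 1 or either 8 h array was dropped, 2 fell without replicate 1 of 16 h and 8 when a gene's probe sets were averaged. Hspa1a, which had read 11.81 and 10.90 at 8 h, lay at 7.38 and 7.26 at 16 h against 9.20 and 8.45 without hCG, 2.83-fold lower. Its near-identical copy Hspa1b, whose probes can share its transcripts, changed by -1.41 ± 0.30, a call lost without replicate 1 of 16 h. The mitochondrial chaperone gene Hspd1 differed by 0.14 (95% interval -0.24 to 0.52).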

How the data were processed

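The authors deposited log2 intensities that ran from 3.32 to 15.5. The log scale was inferred from that range; how background, normalization and summary were handled is not given in the sources used here, and no further scaling was applied. Gene symbols came from the platform annotation, in which 932 probe sets had several symbols, 9160 had none and 64 were controls; of those with 1 symbol, 34741 matched a current gene by gene number. The dimmest probe sets, with means over the 6 arrays below 5.62 (percentile 40), were left untested, and 27022 remained. A gene low in most arrays could therefore pass through a group where it was high. A gene was represented by its brightest probe set, by the mean over the same 6 arrays. Of the tested genes, 5917 had several tested probe sets, and 56 called genes had probe sets called in both directions. Arrays were grouped by their titles.

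With limma 3.58.1 in R 4.3.3, the 3 groups of the 6 arrays were fitted together (lmFit, eBayes; 3 residual and 6.43 prior degrees of freedom). The contrast was 16 h minus no hCG, two-sided, with Benjamini-Hochberg adjustment over all tested probe sets. All adjusted p-values come from this fit, which was tested on simulated data. The comparison, its 38 gene lists (33 genes are on several) and the rules were chosen with earlier results of these data known, so a list's direction is no independent evidence. The named genes were the 12 highest and 12 lowest changes with a group mean of at least 8.50, the 4 largest changes of each list and the largest against its direction, preset members of each list, and the 5 highest and 5 lowest on no list. Oas1a, Rsad2, Gbp2, Gbp3, Cdc20, Kif11, Psmb9, Laptm5, Cd3e and Ccr2 were added after their values were seen. Alternatives changed the scaling, the filter, the arrays in the fit, the variance prior, the threshold, a replicate block and the choice of probe sets, or left out each array in turn.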

Additional observations from a re-analysis of the deposited data

How the results depend on the processing

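Testing against a change of 1.5-fold rather than 0 left 3853 probe sets called, 1993 higher and 1860 lower, and 2297 genes, 1137 higher and 1160 lower. Leaving out single arrays gave 7312 to 10345 probe sets, 3538 to 5540 higher and 3446 to 4809 lower, or 4183 to 5649 genes, 1925 to 2997 higher and 1989 to 2736 lower. Whether the replicate numbers pair the samples is not given in the labels. Deviations of same-numbered arrays correlated at 0.00103 between no hCG and 16 h, 0.468 between no hCG and 8 h and 0.135 between 8 h and 16 h. With a replicate block 6110 genes were called, 3062 higher and 3048 lower. Leaving out single arrays moved the median of 17 of the 38 lists by over 1.5 times, all lists with medians between -0.51 and 0.44. Of the 221 called genes named by rule, 181 kept their call and direction under every one of the 18 alternatives that tested them. Ndufb8, at -0.59, was at 0.082 without probe sets of types that can cross-hybridise. The 40 that did not, Ndufb8 included, each lost the call in the test against 1.5-fold, and some in other alternatives too. The cause was not tested. Signal over background is unknown, and 2 arrays a group limit the precision. Of 100 probe sets simulated to change by 1 on the log2 scale 35% were recovered, and of 100 changed by 2, 86%. Those were few changed probe sets among 27022, whereas 37.3% were called in the data. The adjustment is stricter where few change, so the recovered shares do not give the part of real changes that was missed. In the data the smallest absolute log2 change called was 0.42, the largest not called 1.33 and the median SE 0.17.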

Other observations

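Genes of neuronal type and regulated secretion split, with 6 of 19 tested higher, 5 lower and a median change of 0.12 between 16 h and no hCG. Beside Nts, Snap25 and Slc18a2, the granin gene Chgb rose by 1.29 ± 0.22 to 6.94 and 6.59, below its 8 h values of 8.58 and 8.43. Scg3, another granin, went from 8.42 and 8.39 to 6.75 and 6.11, 3.92-fold lower. Of 26 glutathione genes, 6 rose and 11 fell, with a median of -0.42. The microsomal transferase gene Mgst2 went from 7.93 and 8.31 to 11.37 and 11.22, 9.04-fold higher, and Gsr and Gss, which reduce and make glutathione, rose by 2.48 ± 0.33 and 2.10 ± 0.20. Gsta2, whose close relatives can share its probes, had read 11.76 and 11.68 at 8 h and was at 6.37 and 6.29 by 16 h, 2.72-fold below the 7.46 and 8.08 without hCG. Of 14 iron genes, 6 rose and 3 fell, with a median of 0.44. The iron exporter gene Slc40a1 read 8.64 and 9.73 without hCG and 12.13 and 12.20 at 16 h, 7.89-fold higher, while the ferroxidase gene Heph went from 11.35 and 11.78 to 9.75 and 9.69, 3.57-fold lower.

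Clock genes moved in opposite directions, 6 of 17 tested up and 6 down. Rora went from 7.53 and 8.07 to 11.40 and 11.60, 13.0-fold higher, with 6 of 8 tested probe sets called, and Bhlhe40 rose by 1.85 ± 0.18. Nr1d1, the repressor that competes with Rora for the same sites, went from 8.98 and 8.43 to 6.60 and 6.85, 3.96-fold lower, and Per3 was 3.89-fold lower. The hour of collection is not given in the sources used here, so that the time of day and the hormone cannot be told apart. Of 19 genes of the Bcl2 family and cell death, 7 rose and 4 fell, and 4 rose without replicate 1 of the arrays without hCG or replicate 1 of 16 h. Bmf, which promotes cell death, went from 6.37 and 6.84 to 9.87 and 10.04, 10.2-fold higher by its brighter probe set, the other tested one not being called, and the survival gene Bcl2l2 rose by 1.65 ± 0.19. Bok and Bid, which promote death, were both 2.20-fold lower. Of 17 tight junction and epithelial genes, 6 rose and 1 fell, and 3 rose without replicate 2 of 16 h. F11r, a junctional adhesion gene, went from 9.67 and 9.62 to 12.73 and 12.45, 7.68-fold higher by its brighter probe set.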
